A study of Mus musculus with 4 samples.

Results

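The 5 dopamine receptor genes of the mouse and 3 genes that package or break down monoamines were followed across 4 groups of striatal libraries. They were taken by symbol (Drd1a, Drd2, Drd3, Drd4, Drd5, Slc18a2, Maoa and Maob), and all 8 were among the 25259 genes of the deposited table. The mice were of the C57BL/6 strain, aged 8 weeks, and either wild-type or carriers of 2 copies of a humanised version of Foxp2 (Foxp2hum/hum), the gene of a forkhead transcription factor. Laser capture gave tissue of the dorsomedial part (DMS) and the dorsolateral part (DLS) of the striatum. There were 11 wild-type DMS, 12 Foxp2hum/hum DMS, 11 wild-type DLS and 12 Foxp2hum/hum DLS libraries. Which mouse gave which library is not in the labels, so p-values measure the spread between libraries, and a DMS and a DLS library may come from 1 mouse. Libraries of a group that shared a mouse would make the p-values too small.

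Dopamine released in the striatum acts on G protein coupled receptors of a pair of families. The D1-like receptors (D1 from Drd1a, D5 from Drd5) raise cyclic AMP, and the D2-like receptors (D2, D3 and D4 from Drd2, Drd3 and Drd4) lower it. Medium spiny neurons, the projection neurons that make up most striatal neurons, carry mainly D1 in the direct pathway and mainly D2 in the indirect pathway, and cholinergic interneurons carry D2 and D5. Slc18a2 encodes the vesicular monoamine transporter, which loads dopamine, serotonin, noradrenaline and histamine into synaptic vesicles. Maoa and Maob encode the monoamine oxidases of the outer mitochondrial membrane, which break amines down. The cell bodies of dopamine neurons lie in the midbrain, not in the striatum, so a striatal capture holds the RNA of the receiving cells and little of the RNA of the releasing ones.

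The genes lie on 7 chromosomes and were placed on mm9 with the GENCODE M1 annotation. Drd1a spans chr13:54146555-54151027 on the minus strand, Drd5 is a single exon at chr5:38710748-38713549 on the plus strand, Drd2 spans chr9:49148732-49216282, Drd3 chr16:43762334-43823045 and Drd4 chr7:148477929-148482362, all 3 on the plus strand. Slc18a2 spans chr19:59335368-59370502 on the plus strand. Maoa (chrX:16196824-16264944, plus strand) and Maob (chrX:16286408-16394492, minus strand) are neighbours whose 3' ends face each other across 21463 bases. One exonic overlap was found among the 8 genes. The antisense long intergenic RNA gene Gm16766 (chr5:38708572-38712133, minus strand) shares 1386 bases with Drd5, all of them exonic, and its mean value was 51.2% of that of Drd5. The labels do not say that counting used strand, so reads of Drd5 and Gm16766 in the shared bases cannot be told apart. A microRNA gene inside Drd3, CT025520.1, was not analysed here.

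The 250 bases before the start are shown for the 3 receptor genes that were lower in DMS than in DLS in Foxp2hum/hum (Drd1a, Drd2 and Drd5). They were read 5' to 3' on the strand of the gene, from RefSeq windows of build GRCm38.p6 that were found unchanged in mm9. Capitals mark a GC box, the letters GGGCGG or their reverse complement CCGCCC.
Drd1a, chr13:54151028-54151277, minus strand: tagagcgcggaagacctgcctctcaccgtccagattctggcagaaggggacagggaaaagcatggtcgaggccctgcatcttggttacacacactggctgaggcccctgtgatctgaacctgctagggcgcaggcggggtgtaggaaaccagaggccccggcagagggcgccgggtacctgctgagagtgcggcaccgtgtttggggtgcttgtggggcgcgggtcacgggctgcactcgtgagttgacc
Drd2, chr9:49148258-49148507, plus strand: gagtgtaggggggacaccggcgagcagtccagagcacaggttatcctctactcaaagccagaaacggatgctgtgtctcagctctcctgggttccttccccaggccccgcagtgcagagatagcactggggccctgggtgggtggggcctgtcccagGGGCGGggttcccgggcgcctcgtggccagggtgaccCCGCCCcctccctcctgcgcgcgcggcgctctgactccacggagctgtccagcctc
Drd5, chr5:38710498-38710747, plus strand: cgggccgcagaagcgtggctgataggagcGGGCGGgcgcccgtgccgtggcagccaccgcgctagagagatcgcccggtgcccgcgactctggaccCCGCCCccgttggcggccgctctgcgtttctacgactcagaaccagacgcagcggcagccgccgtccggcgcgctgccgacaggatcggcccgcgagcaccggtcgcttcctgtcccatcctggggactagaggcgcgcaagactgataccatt

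All 3 windows were rich in G and C, with 64% for Drd1a, 68.8% for Drd2 and 71.2% for Drd5, against a median of 52.4% over 32536 mouse windows of the same length. Drd2 and Drd5 each held 2 GC boxes, 1 on each strand, and Drd1a held none. A GC box was present in 33% of all windows. None of the 3 windows held the letters TATAAA of the TATA box, which were found in 12.3% of all windows on either strand. The same was true of the cyclic AMP response element TGACGTCA (1.56% of all windows), of the letters of the box called CCAAT (33.8%) and of an E-box of the form CACGTG (6.04%). The Drd5 window lies inside Gm16766, and the RefSeq start of Drd2 lies 224 bases upstream of the GENCODE start.

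Values are read counts per gene divided by 1 size factor per library, and recovered totals ran from 16.79 to 41.01 M reads (M, mega) per library. Per kilobase of exon, the mean normalised count over all 46 libraries was 2473 for Drd2 and 1088 for Drd1a, which stood well above the rest. Maob (135) and Maoa (87.6) came next, followed by Slc18a2 (30.3), Drd5 (16.5, overlap with Gm16766 included), Drd3 (7.45) and Drd4 (0.493). Maoa and Maob were neighbours in that order whose libraries overlapped, with a ratio of Maoa to Maob per exon kilobase from 0.405 to 1.26 over the 46 libraries. The values behave as if reads were counted over whole gene spans, introns included, and on both strands, which no label states. Per kilobase of span the order of the first pair was reversed, with 858 for Drd1a, a compact gene, and 93.3 for Drd2, whose introns are long. The order of the rest changed too. Drd5 (16.5, overlap included) came next, then Maoa (5.36), Maob (3.48), Slc18a2 (3.27), Drd4 (0.309) and Drd3 (0.178).

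**Figure D1:**
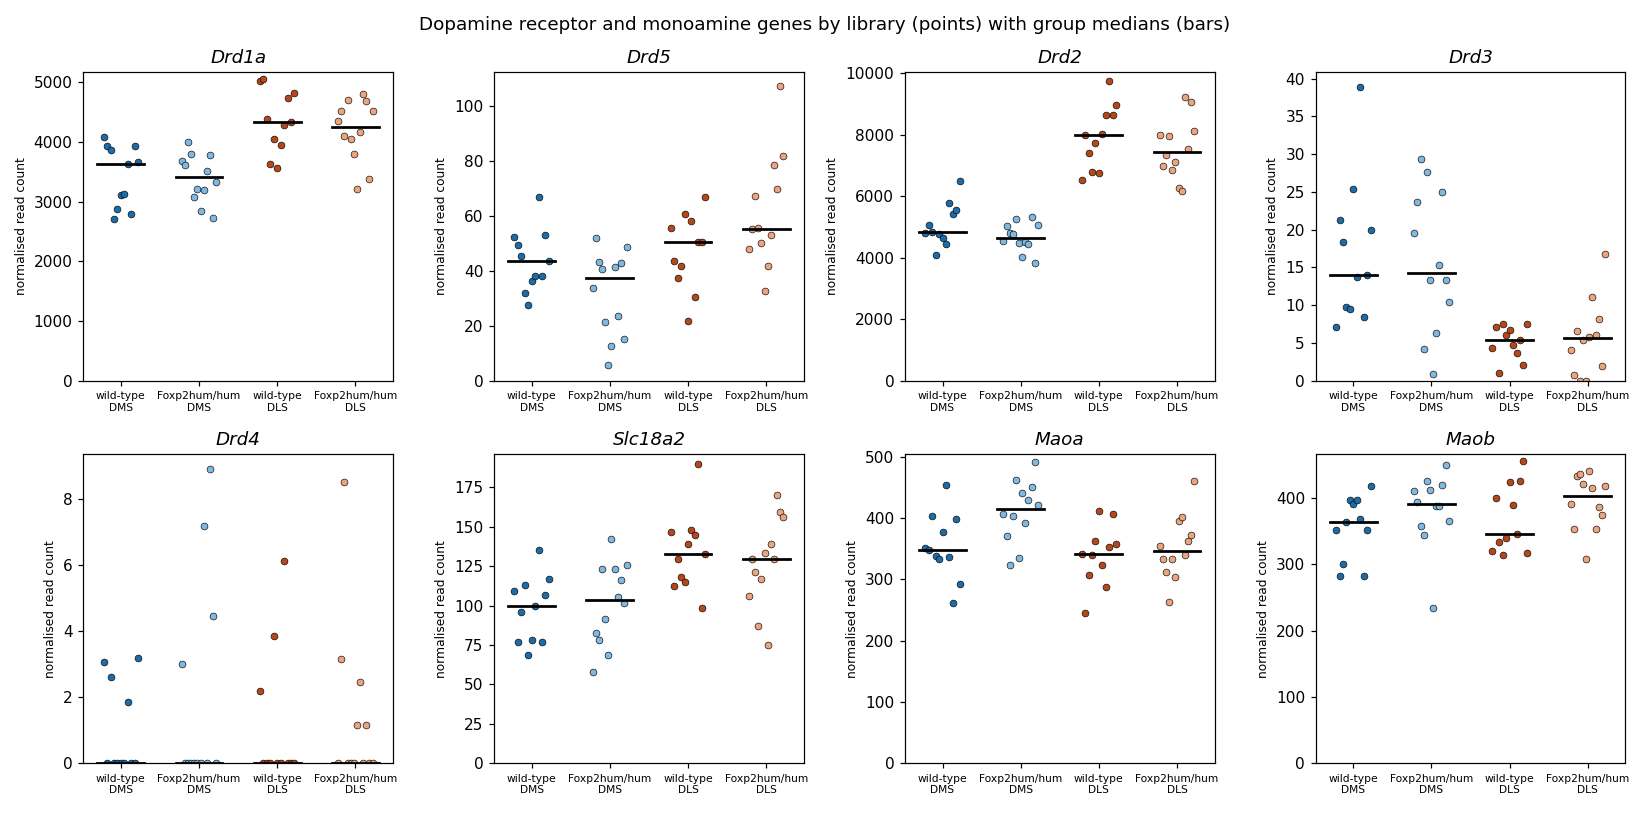
Normalised read count (vertical axis, from 0, a separate scale for each gene) of the 8 genes in each library (points), with the median of each of the 4 groups (bars). Drd2 separates the regions in both genotypes, with DMS libraries up to 6482 and 5313 and DLS libraries from 6538 and 6161, whereas Maoa and Maob libraries overlap in all groups.

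Differences between regions were tested on log2(value + 1) with limma, over 19561 genes whose mean value was at least 10, with Benjamini-Hochberg adjustment over all of them. 7 of the 8 genes could be tested, and Drd4 was below the minimum. In wild-type mice 4 of the 7 passed an adjusted p of 0.05, 1 higher in DMS (Drd3) and 3 lower (Drd1a, Drd2 and Slc18a2), where 17.3% of all genes tested passed (8.54% higher and 8.72% lower). In Foxp2hum/hum 4 of the 7 passed, where 18.1% of all genes passed. They were Drd3, higher in DMS as were 9.33% of all genes, and Drd1a, Drd2 and Drd5, lower as were 8.82%. Over the 7 genes the median log2 difference was -0.08 (wild-type) and -0.30 (Foxp2hum/hum), against 0.01 and 0.02 over all genes. Drd3, with a mean of 10.8 over all libraries, reached the minimum through its DMS libraries, so its place among the 7 depends on the groups being compared. In bulk tissue, fewer cells that express a gene and less RNA per cell cannot be told apart.

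Drd1a, the D1 receptor gene, ran from 2700 to 4086 in wild-type DMS (median 3628) and from 3562 to 5053 in wild-type DLS (median 4332). In Foxp2hum/hum it ran from 2729 to 3991 in DMS (median 3415) and from 3211 to 4807 in DLS (median 4255). The ranges overlapped, but every DMS library lay below the DLS median of its genotype, 11 of 11 in wild-type and 12 of 12 in Foxp2hum/hum. Drd1a was 1.27-fold lower in wild-type DMS than in DLS (log2 -0.35 ± 0.08 SE, limma adjusted p = 0.00149) and 1.23-fold lower in Foxp2hum/hum (-0.30 ± 0.08, adjusted p = 0.00392). This was the smallest of the differences that passed. Quantile normalisation ended both calls, with limma adjusted p = 0.0600 (log2 -0.26) in wild-type and 0.117 (-0.21) in Foxp2hum/hum.

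Drd5, the D5 receptor gene, was a gene of low level whose regional difference passed in Foxp2hum/hum. It ran from 27.5 to 66.8 in wild-type DMS (median 43.8) and from 21.8 to 67 in wild-type DLS (median 50.4), so the 2 wild-type groups spread over the same range. In Foxp2hum/hum it ran from 5.74 to 51.9 in DMS (median 37.3) and from 32.8 to 107 in DLS (median 55.4). All 12 Foxp2hum/hum DMS libraries were below the DLS median, 5 were below every DLS library, and the same 5 were below every wild-type DMS library. Of the Foxp2hum/hum groups, DMS had 2.12-fold less Drd5 than DLS (log2 -1.09 ± 0.24 SE, limma adjusted p = 0.000584). Between the wild-type groups the difference was -0.08 ± 0.25 (adjusted p = 0.878), with a 95% interval from -0.58 to 0.43. These values rest on 6 to 111 reads per library.

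The antisense gene Gm16766 moved with Drd5. Its median was 25.4 in wild-type DMS, 17.2 in Foxp2hum/hum DMS, 28.6 in wild-type DLS and 30.3 in Foxp2hum/hum DLS. In Foxp2hum/hum it was likewise lower in DMS, by log2 -0.96 ± 0.32 SE (limma adjusted p = 0.0288), and it did not pass in wild-type (-0.29 ± 0.34, adjusted p = 0.615). Within groups the log2 values of Drd5 and Gm16766 had a Pearson correlation of 0.61 over 46 libraries, which share the reads of the overlap, and in all 4 groups the mean of Gm16766 was 49.1% to 53.3% of that of Drd5. The count of Drd5 minus that of Gm16766, which takes out every read they share and also the reads of Gm16766 alone, had a mean of 15.4 ± 10.3 (SD, n = 12) in Foxp2hum/hum DMS and 30.2 ± 14.3 (SD, n = 12) in Foxp2hum/hum DLS. In wild-type it was 22.3 ± 6.85 (SD, n = 11) in DMS and 22 ± 12.4 (SD, n = 11) in DLS. The Foxp2hum/hum means kept the order of DMS below DLS and the wild-type means lay close together. The value was below 0 in 2 Foxp2hum/hum DMS libraries and 1 wild-type DLS library, where Gm16766 had the higher count, and it was not tested.

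**Figure D2:**
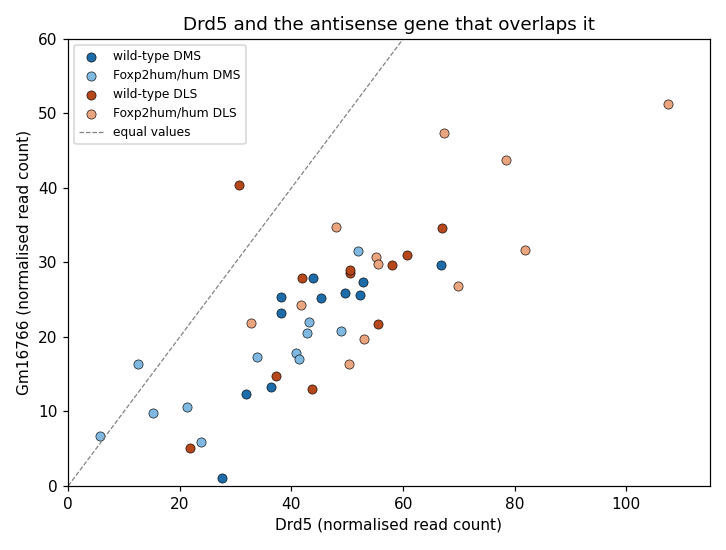
Normalised read count of Drd5 (horizontal axis) and of the overlapping antisense gene Gm16766 (vertical axis, with its own scale) in each of the 46 libraries, coloured by group, with a dashed line of equal values. The counts rise together, and the Foxp2hum/hum DMS libraries reach down to 5.74 for Drd5 while the Foxp2hum/hum DLS libraries start at 32.8.

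Drd2, the D2 receptor gene and the highest of the 8 by normalised read count, separated the regions completely. It ran from 4072 to 6482 in wild-type DMS (median 4827) and from 6538 to 9743 in wild-type DLS (median 7989). In Foxp2hum/hum it ran from 3827 to 5313 in DMS (median 4654) and from 6161 to 9209 in DLS (median 7437). No DMS library reached a DLS library of its genotype, a separation found for 1.95% of all genes tested in wild-type and 2.2% in Foxp2hum/hum. Drd2 was 1.56-fold lower in wild-type DMS (log2 -0.64 ± 0.08 SE, limma adjusted p = 8.51e-09) and 1.61-fold lower in Foxp2hum/hum DMS (-0.69 ± 0.07, adjusted p = 3.72e-10). In all 46 fits that each left out 1 library the wild-type difference stayed between -0.68 and -0.61.

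Drd3, the D3 receptor gene, best known from the ventral striatum, was the gene of the 8 that passed as higher in DMS. It ran from 7.17 to 38.9 in wild-type DMS (median 14) and from 0.982 to 7.57 in wild-type DLS (median 5.45), and 10 of 11 DMS libraries were above every DLS library. In Foxp2hum/hum it ran from 0.962 to 29.3 in DMS (median 14.3) and from 0 to 16.7 in DLS (median 5.62), with 5 of 12 DMS libraries above every DLS library. The wild-type libraries were nearly separated and the Foxp2hum/hum libraries overlapped widely. Drd3 was 2.84-fold higher in wild-type DMS on the log2(value + 1) scale (log2 1.51 ± 0.44 SE, limma adjusted p = 0.0113) and 2.83-fold higher in Foxp2hum/hum (1.5 ± 0.42, adjusted p = 0.00750). Its mean was 16.9 in wild-type DMS and 15.7 in Foxp2hum/hum DMS, against 5.12 and 5.56 in DLS, so it passed the filter of 10 through the region where it was high. With no filter the difference was the same, with limma adjusted p = 0.0113 and 0.00731. The level is close to the counting limit, with 190 reads in all in the 11 wild-type DMS libraries and 53 in the 11 wild-type DLS libraries, and no read in 2 Foxp2hum/hum DLS libraries. Over 12 other settings of the fit the wild-type difference ran from 1.05 to 1.71, and the call was kept in all of them.

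Drd4, the D4 receptor gene, was at the edge of detection. It had no read in 7 of 11 wild-type DMS, 8 of 12 Foxp2hum/hum DMS, 8 of 11 wild-type DLS and 7 of 12 Foxp2hum/hum DLS libraries. The highest values of the 4 groups were 3.18, 8.92, 6.13 and 8.54, and the reads summed to 11, 27, 14 and 17 per group. Deaf1, a transcription factor gene that ends 712 bases from Drd4, had a mean of 702. A difference in Drd4 was not detectable at this depth: without the filter on low values its limma adjusted p was 0.960 between regions in wild-type and 0.911 in Foxp2hum/hum.

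The D1 and D2 genes were both lower in DMS, Drd2 by more. Within a library, the ratio of Drd1a to Drd2 read counts had a median of 0.667 in wild-type DMS (0.515 to 0.848) and 0.527 in wild-type DLS (0.486 to 0.767). In Foxp2hum/hum the median was 0.715 in DMS (0.584 to 0.833) and 0.558 in DLS (0.373 to 0.675). Per kilobase of exon the medians were 0.482, 0.381, 0.517 and 0.403 in the same order, so per exon kilobase Drd2 was the higher of the pair in every group, and per kilobase of span, as above, Drd1a was. Within groups Drd1a and Drd2 had a Pearson correlation of 0.43 over the 46 libraries (0.33 without the 2 farthest). Both values of a library come from the same mix of cells, whose part in the correlation was not tested.

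**Figure D3:**
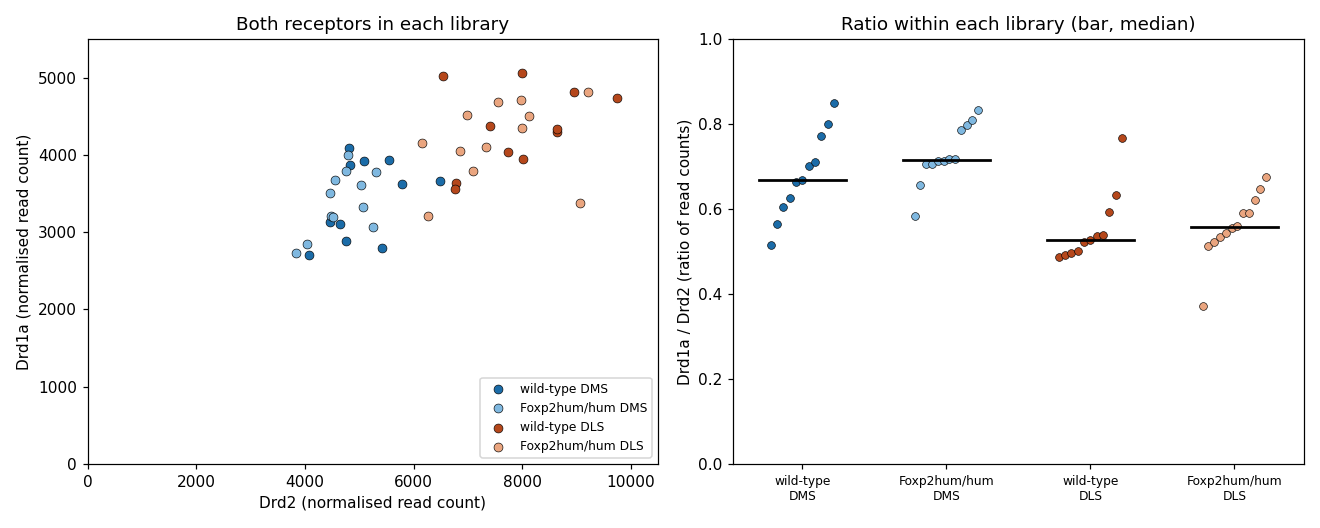
Left, normalised read counts of Drd1a (vertical axis) and Drd2 (horizontal axis) in each library, coloured by group. Right, ratio of the Drd1a to the Drd2 read count in each library by group (points) with the median (bar), which is 0.667 and 0.715 in wild-type and Foxp2hum/hum DMS and 0.527 and 0.558 in DLS.

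Slc18a2, the vesicular transporter gene, ran from 68.8 to 135 in wild-type DMS (median 99.4) and from 98.6 to 190 in wild-type DLS (median 133). In Foxp2hum/hum it ran from 57.8 to 142 in DMS (median 103) and from 75.2 to 170 in DLS (median 129). The ranges overlapped, with 10 of 11 wild-type and 11 of 12 Foxp2hum/hum DMS libraries below the DLS median. It was 1.37-fold lower in wild-type DMS (log2 -0.46 ± 0.14 SE, limma adjusted p = 0.0187). It did not pass in Foxp2hum/hum (-0.33 ± 0.14, adjusted p = 0.0843), and it did with quantile normalisation (adjusted p = 0.0281), with limma array weights (0.0406) or without any one of libraries 42, 60 and 64 (0.0287 to 0.0481). Pdzd8, which ends 71 bases from Slc18a2 on the opposite strand, had a mean of 3265 against 115 and did not pass between regions (log2 0.11 in both genotypes, limma adjusted p = 0.411 and 0.395).

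Neither oxidase gene passed between regions. Maoa ran from 261 to 455 in wild-type DMS (median 347), from 244 to 412 in wild-type DLS (median 341), from 323 to 492 in Foxp2hum/hum DMS (median 414) and from 264 to 461 in Foxp2hum/hum DLS (median 347). The Foxp2hum/hum DMS group was the high one, with 10 of its 12 libraries above the median of Foxp2hum/hum DLS and 10 above that of wild-type DMS. The regional difference was log2 0.06 ± 0.09 SE in wild-type (limma adjusted p = 0.724) and 0.22 ± 0.09 in Foxp2hum/hum (adjusted p = 0.0717). The second passed with limma array weights (adjusted p = 0.0220), with the mitochondrial share of reads as a covariate (0.00995) and without any one of libraries 31, 49 and 94 (0.0289 to 0.0452). Mitochondrially encoded genes took a mean of 20.2% of reads in wild-type DMS, 22.4% in Foxp2hum/hum DMS, 22.7% in wild-type DLS and 24.8% in Foxp2hum/hum DLS.

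Maob ran from 282 to 418 in wild-type DMS (median 365), from 314 to 456 in wild-type DLS (median 346), from 234 to 451 in Foxp2hum/hum DMS (median 392) and from 309 to 441 in Foxp2hum/hum DLS (median 404). All 4 groups covered much the same range. The regional difference was -0.06 ± 0.09 SE in wild-type, with a 95% interval from -0.24 to 0.12, and -0.05 ± 0.09 in Foxp2hum/hum, from -0.23 to 0.12 (limma adjusted p = 0.724 and 0.735). The ratio of Maoa to Maob read counts had a median of 0.963 in wild-type DMS, 1.08 in Foxp2hum/hum DMS, 0.918 in wild-type DLS and 0.940 in Foxp2hum/hum DLS. Within groups the 2 oxidase genes had a Pearson correlation of 0.16 over the 46 libraries.

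None of the 7 genes tested passed between genotypes, in either region, or for the interaction of genotype and region, and 0% of all genes tested with limma passed in these 3 contrasts. In DMS, unadjusted p was under 0.05 for 2 of the 7 (700 of all genes), in DLS for 0 (843) and for the interaction for 1 (321). Drd5 was the gene with the largest genotype values, log2 -0.63 ± 0.25 SE in DMS (limma adjusted p = 0.955) and 0.38 ± 0.25 in DLS (adjusted p = 0.843). Its interaction was -1.01 ± 0.35 with a 95% interval from -1.71 to -0.31 and an adjusted p of 0.9999, so that its regional difference, past the threshold in Foxp2hum/hum only, was not shown by the limma test to differ between genotypes. Maoa was the other gene of the 2 in DMS (0.22 ± 0.09, limma adjusted p = 0.955).

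In DMS the 95% interval of the genotype difference was -0.17 to 0.15 for Drd1a, -0.27 to 0.04 for Drd2, 0.04 to 0.40 for Maoa and -0.07 to 0.28 for Maob. In DLS it was -0.22 to 0.11 for Drd1a, -0.22 to 0.08 for Drd2, -0.13 to 0.24 for Maoa and -0.08 to 0.28 for Maob. For Slc18a2 it was -0.25 to 0.31 in DMS and -0.37 to 0.19 in DLS. For Drd3 it was wide, -1.13 to 0.60 in DMS and -1.12 to 0.61 in DLS. edgeR called no gene in the 3 contrasts. In DLS between genotypes DESeq2 called 3 genes and limma with array weights 1, none of them among the 8.

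**Figure D4:**
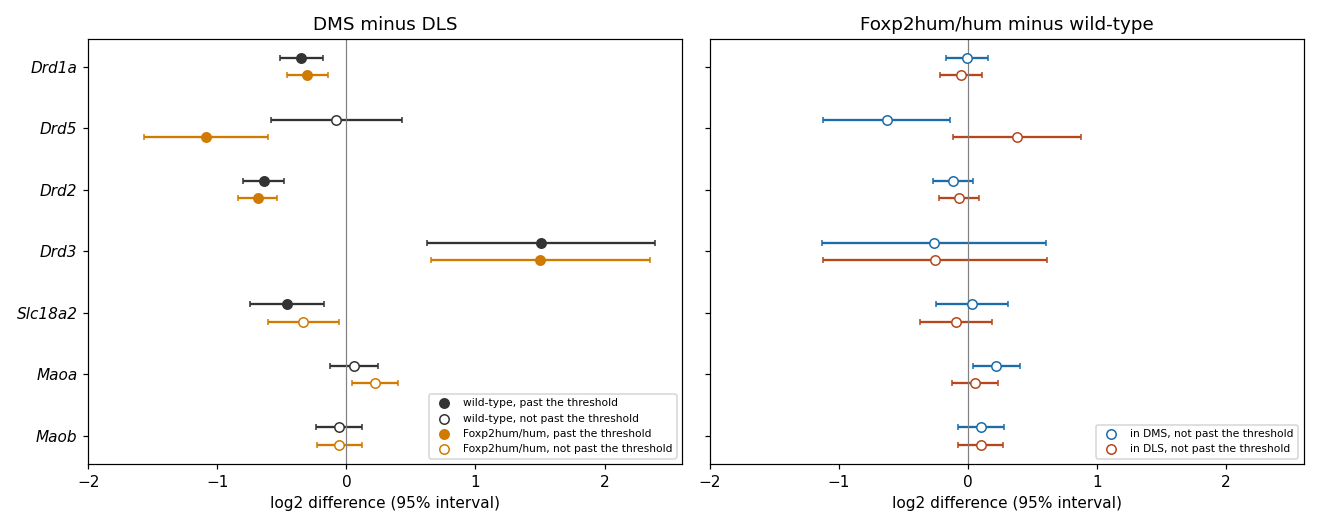
Log2 difference (horizontal axis) with its 95% interval for the 7 genes tested, between the regions of a genotype (left, DMS minus DLS) and between the genotypes of a region (right, Foxp2hum/hum minus wild-type), where filled points passed a limma adjusted p of 0.05. On the left Drd2 lies at -0.64 and -0.69 with short intervals and Drd3 at 1.51 and 1.5 with long ones. On the right no point passed.

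Other genes of monoamine synthesis, transport and breakdown were read from a list of 20, of which 17 were in the table and 14 could be tested. In each genotype 1 was higher and 3 were lower in DMS, where 17.3% (wild-type) and 18.1% (Foxp2hum/hum) of all genes passed, and the list median was -0.11 and -0.02 against 0.01 and 0.02 over all genes. Aldh1a1, a retinaldehyde dehydrogenase that also oxidises the aldehyde formed from dopamine, had a median of 120 in wild-type DMS and 780 in wild-type DLS (log2 -2.80 ± 0.14 SE, limma adjusted p = 5.02e-21). Its wild-type libraries did not overlap between regions, as for 1.95% of all genes tested, and those of Slc22a3 and Hdc, given below, did not either. In Foxp2hum/hum the medians were 148 and 936 (-2.65, adjusted p = 5.50e-21). Slc22a3, a low-affinity monoamine transporter gene, was lower by log2 -1.41 in wild-type and -1.52 in Foxp2hum/hum (limma adjusted p = 5.09e-12 and 1.31e-13). Its medians were 132 and 131 in DMS and 358 and 382 in DLS.

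Tph2, the serotonin-synthesising hydroxylase of neurons, was lower in DMS, with medians of 8.72 and 8.91 in wild-type and Foxp2hum/hum DMS and 62.3 and 55.9 in DLS (log2 -2.55 and -2.36, limma adjusted p = 2.26e-07 and 4.15e-07). Hdc, which makes histamine, was the gene of the list that passed as higher in DMS (log2 2.46 and 2.03, limma adjusted p = 2.34e-09 and 8.31e-08). Its medians were 69.8 and 88 in DMS and 11 and 21.6 in DLS. Th, the rate-limiting enzyme of dopamine synthesis, did not pass (log2 -0.56 and -0.47, limma adjusted p = 0.105 and 0.169). Its group medians ran from 54.9 to 77.6. The decarboxylase gene Ddc did not pass either (0.33 and 0.29, adjusted p = 0.193 and 0.238), and the mean of the overlapping gene 1700042O10Rik was 16.8% of its mean.

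Markers of midbrain dopamine neurons ranged from near 0 to the levels of Th and Ddc. The dopamine transporter gene Slc6a3 had a median of 0.847 in wild-type DMS, 0 in Foxp2hum/hum DMS, 5.93 in wild-type DLS and 2.11 in Foxp2hum/hum DLS. Lmx1a, a transcription factor gene of these neurons, had group medians from 5.02 to 6.78. The nuclear receptor gene Nr4a2 had group medians from 23.4 to 32.8 and reached 258 in 1 Foxp2hum/hum DLS library. Of 11 markers of midbrain dopamine neurons 7 were in the table, and their summed value ran from 128 to 437 over all libraries. Of the 3 that could be tested, none passed in either direction between regions. The serotonin transporter gene Slc6a4 had medians of 0 to 0.375, and the noradrenaline transporter gene Slc6a2 of 2.84 to 3.98.

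Of a list of 20 genes that act downstream of dopamine receptors, all tested, 3 were higher and 9 lower in DMS in wild-type, where 8.54% and 8.72% of all genes were, with list medians of -0.13 in both genotypes. In Foxp2hum/hum 5 were higher and 8 lower, where 9.33% and 8.82% of all genes were. Of the lower genes, 6 in each genotype were also on the list of genes shared by medium spiny neurons that is counted further on. Ppp1r1b, the phosphatase inhibitor on which cyclic AMP signals of both receptor families converge, was lower by log2 -0.56 ± 0.08 SE in wild-type and -0.56 ± 0.08 in Foxp2hum/hum (limma adjusted p = 3.92e-07 and 1.40e-07), and the mean of the overlapping gene 1700003D09Rik was 78.8% of its mean. Pde1b, a cyclic nucleotide phosphodiesterase, was lower by -0.45 and -0.42, and Rgs9, which speeds the switching off of Gi signals, by -0.36 and -0.35. Genes of Gi/o alpha subunits, the partners of D2-like receptors, moved both ways. Gnao1, named after its values were seen, was lower in both genotypes (log2 -0.44 and -0.44, limma adjusted p = 0.00730 and 0.00435). Gnai1 had a median of 1432 in wild-type DMS and 736 in wild-type DLS (log2 0.83 ± 0.09 SE, limma adjusted p = 9.63e-10), and 1424 and 756 in Foxp2hum/hum (0.87 ± 0.09, adjusted p = 6.12e-11). Gnai2 was higher by 0.41 and 0.37, and Prkar1b, a regulatory subunit of protein kinase A, by 0.36 and 0.29.

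Markers of the neurons that carry the receptors did not move as 1 block. Of 8 direct pathway markers 1 was higher and 2 were lower in DMS in each genotype, and the shares of all genes that passed, 17.3% and 18.1%, stand beside this and the marker counts that follow. Pdyn, the prodynorphin gene, was higher (log2 1.31 and 1.60, limma adjusted p = 1.43e-16 and 1.91e-20), with medians of 2290 and 2159 in DMS and 890 and 702 in DLS. Chrm4, the M4 muscarinic receptor gene, was lower (-0.67 and -0.57, adjusted p = 1.93e-07 and 2.04e-06, with the mean of the overlapping gene Mdk at 18.1% of its mean), as was Eya1, a transcriptional co-activator gene (-1.37 and -1.57, adjusted p = 2.28e-05 and 6.44e-07). Of 4 indirect pathway markers tested, Adora2a, the adenosine receptor gene co-expressed with Drd2, was lower (-0.71 and -0.68, limma adjusted p = 1.23e-08 and 1.43e-08) with medians of 4958 and 4852 in DMS and 8150 and 7450 in DLS. Penk, the enkephalin precursor gene of the same neurons, had medians of 25644 and 26241 in DMS and 24952 and 25045 in DLS and did not pass (-0.01 and 0.05, adjusted p = 0.975 and 0.751).

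Of 14 genes shared by medium spiny neurons of both pathways, 9 were lower in DMS and none was higher in either genotype. Their summed value ran from 167188 to 241068 in wild-type DMS, 170014 to 214533 in Foxp2hum/hum DMS, 244158 to 315800 in wild-type DLS and 238923 to 292024 in Foxp2hum/hum DLS. None of the 14 was at 0 in every library of a group. Of 3 cholinergic interneuron markers tested 2 were lower, Chat (log2 -0.78 and -0.74, limma adjusted p = 6.74e-06 and 8.29e-06) and the choline transporter gene Slc5a7 (-0.76 and -0.75, adjusted p = 5.16e-05 and 3.18e-05). Within groups Chat correlated with Drd2 at a Pearson r of 0.42 over 46 libraries and with Drd5 at 0.24. Without the 2 farthest libraries of each pair these values were 0.51 and 0.40. Drd1a with Drd2 had 0.43 over all 46 libraries and 0.33 without the 2 farthest. Each library has its own mix of cells, whose part in these correlations was not tested. Of 8 tested markers of choroid plexus and ependyma, cells that lie in or line the ventricle beside DMS, 6 were higher in DMS in each genotype. The sum of the 10 in that list ran from 379 to 10971 in wild-type DMS, 628 to 7196 in Foxp2hum/hum DMS, 183 to 401 in wild-type DLS and 156 to 318 in Foxp2hum/hum DLS. Of 3 GABA interneuron markers Pvalb, the parvalbumin gene, was lower in both genotypes (log2 -2.17 and -2.67, limma adjusted p = 5.22e-12 and 1.30e-15). Of 6 astrocyte markers Gfap was higher (0.915 and 0.995, limma adjusted p = 0.000402 and 5.71e-05) and Gjb6 lower (-0.31 and -0.55, adjusted p = 0.0267 and 2.00e-05). The mean of AL731670.1, which overlaps Gfap, was 569% of the Gfap mean, so the Gfap value cannot be told apart from reads of that gene. Of 6 oligodendrocyte markers 1 was higher in wild-type, and no cortical excitatory, endothelial and mural or microglial marker passed. The part of these cell types in the results for the 8 genes was not tested.

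With the mean log2 level of the 14 shared medium spiny neuron genes as a covariate, an alternative added after seeing the data, Drd2 kept its call at a smaller size (wild-type log2 -0.28, limma adjusted p = 0.00102, and Foxp2hum/hum -0.34, adjusted p = 3.87e-05). Drd3 kept its call (2.44 and 2.39), while Drd1a was at -0.01 and 0.03 and did not pass. Drd5 was then higher in wild-type DMS (0.75, limma adjusted p = 0.0362) and did not pass in Foxp2hum/hum (-0.30, adjusted p = 0.400), and Slc18a2 did not pass in wild-type (-0.27, adjusted p = 0.252). The covariate is built from genes that differ between the regions themselves, since 9 of the 14 were lower in DMS in each genotype. Their summed value, which is not the covariate, did not overlap between DMS and DLS of a genotype. In that fit 49.3% (wild-type) and 51.4% (Foxp2hum/hum) of all genes passed between regions. With Ttr, a choroid plexus gene, and Ccdc153, an ependymal gene, as covariates none of the 7 passed in either genotype: Drd2 was at -0.12 ± 0.19 SE and -0.22 ± 0.18 and Drd3 at 3.62 ± 1.15 and 3.42 ± 1.04. Ccdc153 had a median of 143 and 167 in DMS against 0 and 1.67 in DLS, so it nearly separates the regions by itself, and 258 and 348 of all genes passed in that fit, against 3377 and 3550 without it.

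For 5 genes whose mean was at least 50, the genes most like them were ranked among 12024 genes by Pearson correlation of log2 values over the 46 libraries after the group means were subtracted. For Drd1a they were Prkar1a (r = 0.89), Rab3gap2 (0.86) and Ppp3ca (0.86), and for Drd2 C2cd2l (0.89), Phyhip (0.85) and Fscn1 (0.84). The closest genes were weaker matches for Slc18a2, with Spata9 (0.64) and Nlgn1 (0.56) among them. For Maoa they were March7 (0.60), Fbxo16 (0.56) and Zfp97 (0.55), and for Maob Itgam (0.58), Sdccag8 (0.56) and Prox1 (0.54). All values of a library come from the same mix of cells, whose part in these correlations was not tested. The ranks of Prox1 and Maob correlated less (Spearman's rho 0.20). The partners of Drd2 differed in their regional difference, with C2cd2l at log2 0.04 and Phyhip at -0.51 in wild-type, against -0.64 for Drd2.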

How the data were processed

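RNA of 46 laser-captured striatal samples was sequenced from low-input libraries on 3 GAIIx flow cells, per the labels. The submitters' processing notes name mm9, TopHat 1.4.1, bedtools and DESeq. The deposited signal per gene is a read count that the authors divided by 1 DESeq size factor per library, per the file headers and the values. 100% of the values were whole reads within a tolerance of 0.01. Positions came from GENCODE M1, where 25023 identifiers matched. All 289 intron-nested genes with a mean of at least 500 reads, 202 of them on the opposite strand, were never above their host, so whole spans on both strands appear to be counted and overlapping genes share reads. The libraries were compared in 4 groups, named by the table's header, and the flow cell of a library was not used here.

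Log2(value + 1) of 19561 genes (mean at least 10) was fitted with limma 3.58.1 (R 4.3.3), with 4 group means and a trend, two-sided, at an adjusted p of 0.05. The fit was also run on simulated data with known changes, which checks the fit and not the calls for these genes. Alternatives used whole reads with DESeq2 1.42.0 or edgeR 4.0.16, other pseudocounts (0.5 and 5), filters (none and 50), TMM and quantile scaling, array weights, only the groups compared, Ttr or the mitochondrial share as a covariate, and leaving out libraries. A 95% interval is that of a difference between group means, with the spread between libraries as its error. All 8 genes and the genes that overlap them were named, with up to 6 passing genes a list by smallest p, markers that define a cell type, and for genes with a mean of at least 50 the 3 most like genes, leaving out clone symbols and genes that overlap (1 of them is not reported here). The genes and lists were chosen with earlier results of these data known.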

Additional observations from a re-analysis of the deposited data

How the results depend on the processing

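Of the region calls, those of Drd2, Drd3, Drd5 and Slc18a2 held under every setting, listed in the processing summary, that tested them, and every call held in all 46 fits without 1 library. No paired analysis was possible because the library numbers name no animal. Planned settings left 483 of the values for single genes on their side of the threshold and in their direction. Of the others 17 changed sign, 6 came to pass and 2 ceased to pass. These counts include the genotype and interaction contrasts, where none of the 7 genes passed in the main fit. With a mean of at least 50, Drd3 and Drd5 were not tested and 2 genes were called in Foxp2hum/hum. Quantile normalisation ended the 2 calls of Drd1a given above, and Maoa and Slc18a2 in Foxp2hum/hum are given there too. Of the alternatives added after seeing the data, Ttr and Ccdc153 as covariates left 0 calls in each genotype, and the shared medium spiny neuron level as a covariate left 2 calls in Foxp2hum/hum. Apart from Drd5 in wild-type with the latter, and the called values named for the covariates below, the differences that changed sign were near 0 or not past the threshold. The cause was not tested.

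With Ttr and Ccdc153 as covariates, the sign changed for DMS minus DLS of Drd1a (0.066 in wild-type, 0.040 in Foxp2hum/hum), Drd5 (1.22 and 0.064), Slc18a2 in Foxp2hum/hum (0.033) and Maob (0.11 and 0.081). It also changed for the genotype difference of Drd1a (0.012 in DMS, 0.037 in DLS), and in DLS of Drd2 (0.038), Drd3 (0.18) and Slc18a2 (0.0032), and for the interaction of Drd1a (-0.025) and Maob (-0.028). With the shared medium spiny neuron level it changed for Drd1a in Foxp2hum/hum (0.026), Drd5 in wild-type (0.75) and Maob (0.017 and 0.018) between regions, and between genotypes for Drd1a (0.055 in DMS, 0.024 in DLS) and Drd2 in DLS (0.014). With the mitochondrial share as a covariate the genotype difference of Drd1a was 0.052 in DMS and 0.0035 in DLS, and without libraries 70 and 72 it was 0.0018 in DMS. The genotype difference of Drd3 in DLS was 0.11 with edgeR and 0.12 with DESeq2. The interaction of Drd3 was 0.097 with a pseudocount of 0.5, 0.0012 with TMM factors, 0.12 with array weights, 0.050 with Ttr and 0.15 without libraries 70 and 72, and that of Maob was -0.00067 with quantile normalisation and -0.0041 with Ttr.

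Leaving out 1 library gave -0.041 to 0.020 for the genotype difference of Drd1a in DMS, -0.017 to 0.099 for that of Slc18a2 in DMS, -0.085 to 0.0090 for DMS minus DLS of Maob in Foxp2hum/hum, -0.21 to 0.24 for the interaction of Drd3 and -0.028 to 0.067 for that of Maob. Depth limits Drd4 and Drd3 most, with at most 10 and 36 reads in a library.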

Other observations

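Genes next to the receptor genes were read for their own regional difference, as values with no explanation. Ankk1, a kinase gene that ends 7044 bases from Drd2 on the opposite strand, had a median of 158 in wild-type DMS, 114 in Foxp2hum/hum DMS, 292 in wild-type DLS and 245 in Foxp2hum/hum DLS. It was lower in DMS by log2 -0.89 ± 0.30 SE in wild-type and -0.85 ± 0.29 in Foxp2hum/hum (limma adjusted p = 0.0315 and 0.0304), the direction of Drd2, although its libraries overlapped widely. Sfxn1, a mitochondrial carrier gene 16186 bases from Drd1a, did not pass (-0.10 and -0.05, limma adjusted p = 0.461 and 0.736). Its mean over all libraries was 2100, against 3837 for Drd1a.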
